A study of Arabidopsis thaliana with 7 samples.

Results

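The genes described here are 10 genes of glucosinolate synthesis in Arabidopsis thaliana, out of 32548 genes in the count table and 33557 genes in the FPKM files. They were chosen by gene identifier from their known roles, with earlier results of these data known. They are the MYB transcription factors MYB28, MYB29, MYB34 and MYB51, the cytochrome P450 enzymes CYP79F1, CYP83A1, CYP79B2, CYP79B3 and CYP83B1 of the core pathway, and CYP81F2, a P450 that modifies indole glucosinolates. All 10 were found in both kinds of file, and all 10 passed the filter on low counts. RNA was sequenced from whole seedlings at 10 days after germination, grown on MS agar medium at 22 °C in long days (16 h light and 8 h dark). The WT group is Col-0 with 2 libraries, and the hon45 mutant group has 2 libraries; the labels name no allele, no transgene and no treatment for either group. HON4 and HON5 encode chromatin proteins related to linker histones, and the comparison asks which genes change in the mutant. The labels do not say whether the 2 libraries of a genotype came from separate cultures. The p-values rest on the spread between these libraries, which may be technical, pooled in part over all tested genes.

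Library totals lay between 53858439 and 63543079 counts. Transcripts of both targeted genes were lower in the libraries labelled hon45, at 0.395-fold for HON4 and 0.158-fold for HON5, and neither genotype's libraries overlapped the other's. Of 29226 genes tested, 1149 (3.93%) passed an adjusted p of 0.05 in the edgeR quasi-likelihood test, 692 (2.37%) as higher and 457 (1.56%) as lower in hon45. Called genes are said below to have risen or fallen. The labels name whole seedlings, and markers of green tissue and of root were both present. Green-tissue markers summed to 24799 to 32385 CPM (library counts scaled to a common size). Root markers summed to 3421 to 4176 CPM, or to 243 to 362 CPM without PYK10. Markers of maturing seed summed to at most 4.16 CPM and floral markers to at most 2.5 CPM. These are bulk samples, in which fewer cells of a type and less RNA per cell cannot be told apart.

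Glucosinolates are sulfur-rich defence compounds of the cabbage order, which yield toxic products when damage brings them into contact with myrosinases. Aliphatic glucosinolates are made from methionine, whose side chain is first lengthened, and indole glucosinolates from tryptophan. CYP79 enzymes turn the amino acid into an aldoxime, CYP83 enzymes oxidise the aldoxime, and later enzymes add sulfur, glucose and sulfate before the side chain is modified. MYB28 and MYB29 activate the aliphatic branch and MYB34 and MYB51 the indole branch, in complexes with the MYC2, MYC3 and MYC4 proteins.

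CYP81F2 fell in hon45, to 0.581 times its WT level (95% interval 0.481 to 0.701). The other 9 genes were not called: 8 had a fold change above 1 (44.5% of all tested genes did), from 1.16 for MYB34 to 1.34 for CYP79B2, and CYP79F1 stood at 0.881. Thus 0 of 10 rose and 1 of 10 fell, where 2.37% and 1.56% of all tested genes did. The median log2 fold change of the 10 genes was 0.28, against −0.04 over all tested genes. Among the 9 uncalled genes, 5 had an unadjusted p under 0.05 in the edgeR fit, as did 17.8% of all tested genes. DESeq2 and limma-voom called 0 of these 9 and called CYP81F2, while calling 6.4% and 4.42% of all genes they tested. DESeq2 gave no adjusted p for MYB29, MYB51, CYP79F1 and CYP79B3, which its own filter on low counts removed. Limma-trend on log2(FPKM + 1) tested all of the 10 but CYP79F1 and called 0, with 0.621% of all genes called. The CPM of both hon45 libraries lay above both WT libraries for 6 of the 10 genes and below both for 1; over all tested genes the shares were 23.1% and 26.2%, or 49.3% in either direction. Without WT replicate 2, 3 of the 10 passed as higher, namely MYB28, CYP83A1 and CYP83B1, where 7.88% of all genes tested in that fit did. Without hon45 replicate 1, 0 of the 10 passed in the edgeR test, CYP81F2 included, where 2.31% of all genes did in either direction.

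**Figure D1:**
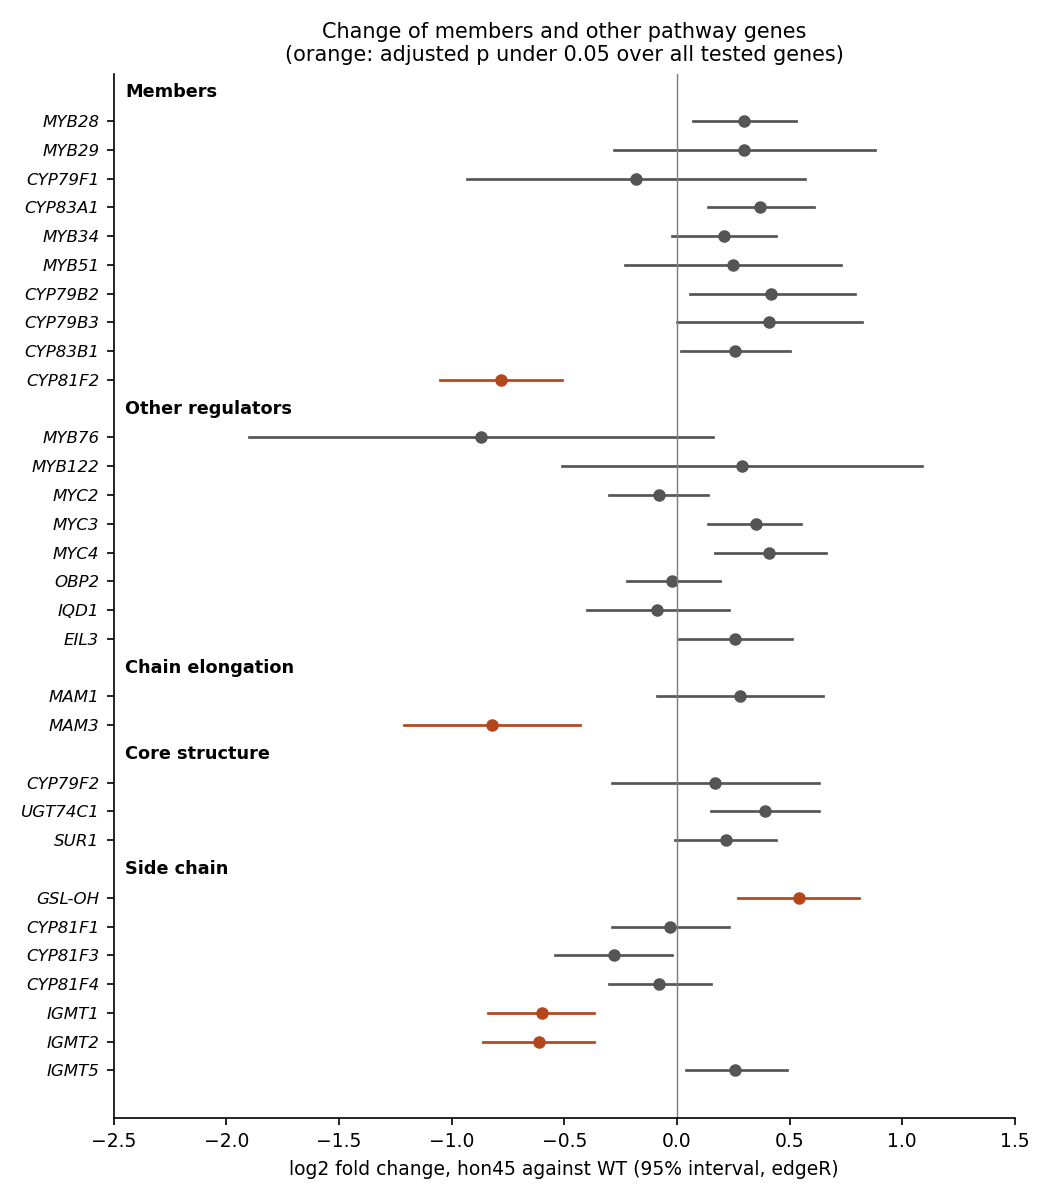
Log2 fold change of hon45 against WT (x axis) for the 10 genes and other genes of the pathway (y axis), from the edgeR fit to 2 libraries per genotype; points are estimates and lines 95% intervals, and orange marks an adjusted p under 0.05 over all tested genes. MAM1 was added after its values were seen, and IGMT5 was added outside the naming rule. CYP81F2, MAM3, IGMT1 and IGMT2 lie below 0 and GSL-OH above it, while the other 9 members lie between −0.18 and 0.42.

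Per transcript length, the 10 genes fell into a high and a low set in every library. In WT, mean FPKM was 19.5 ± 1.71 (SD, n = 2) for MYB34, 17.3 ± 2.51 for CYP83B1 and 16.7 ± 2.03 for MYB28, and the ranges of neighbours in this order overlapped. CYP81F2 at 13.2 ± 1.37 and CYP83A1 at 11.9 ± 1.02 FPKM came next, below MYB28 in both libraries and overlapping each other. The low set began with CYP79B2 at 2.42 ± 0.25, CYP79B3 at 1.91 ± 0.564 and MYB51 at 1.82 ± 0.304 FPKM, again with overlapping neighbours, and ended with MYB29 at 1.36 ± 0.24 and CYP79F1 at 0.682 ± 0.253. In hon45 the order of mean FPKM was the same except that CYP83A1 stood above CYP81F2, at 15.6 ± 0.76 against 7.41 ± 1.11 FPKM (SD, n = 2); there the ranges of CYP83B1 and MYB28, and of CYP79B3 and MYB51, overlapped. The ratio of CYP83A1 to CYP81F2 FPKM was 0.919 and 0.895 in the WT libraries and 2.43 and 1.83 in the hon45 libraries.

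**Figure D2:**
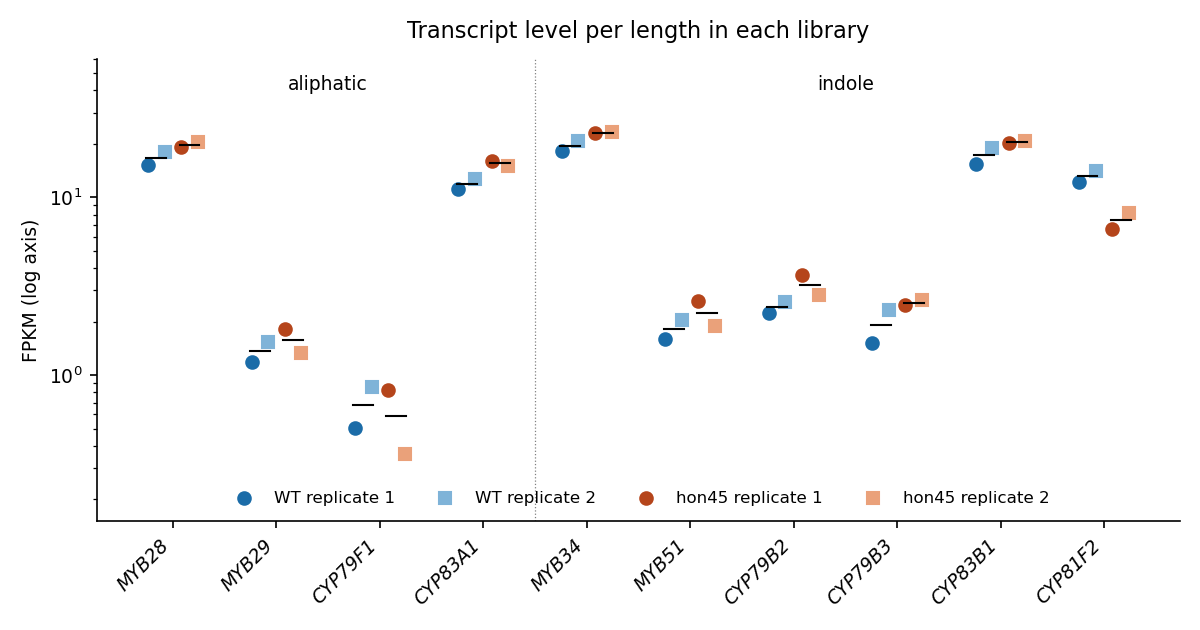
FPKM (y axis, log scale) of the 10 genes (x axis, aliphatic branch left and indole branch right) in each library; points are libraries and black bars the mean of each genotype. MYB34, CYP83B1, MYB28, CYP83A1 and CYP81F2 lie above 6 FPKM in every library and the other 5 genes below 4 FPKM, and CYP81F2 is the gene whose hon45 points sit clearly under its WT points.

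Within each pair of regulators, a single gene held most of the transcript per length. The FPKM of MYB28 was 10.6 to 15.3 times that of MYB29 over the 4 libraries, and that of MYB34 was 8.81 to 12.3 times that of MYB51. The enzymes showed a step between the first and the second reaction: CYP83B1 stood at 5.58 to 7.36 times CYP79B2 and at 7.9 to 10.3 times CYP79B3 in FPKM, and CYP83A1 at 14.7 to 41.8 times CYP79F1. CYP79F2, the close copy of CYP79F1 at the same step, had 1.6 to 4.22 times the FPKM of CYP79F1, and CYP83A1 stood at 5.65 to 8 times the sum of both. The counts and FPKM of CYP79F1 disagree, as given below, so its FPKM level and these ratios are uncertain. CYP79B2 and CYP79B3, which catalyse the same reaction, were close, with ratios of 1.07 to 1.48. The lead regulators of the branches were also close, with a MYB28 to MYB34 ratio of 0.836 to 0.878 in FPKM.

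MYB28 (AT5G61420; TAIR10 chromosome 5, 24689151 to 24691095), the main activator of the aliphatic branch, had 20.2 and 23.6 CPM in WT and 26.1 and 27.9 CPM in hon45. Both hon45 libraries lay above both WT libraries, and WT replicate 1 was the lowest of the 4. By the edgeR quasi-likelihood test it stood 0.30 higher on the log2 scale (SE 0.11, adjusted p = 0.143), and with WT replicate 2 left out it passed at 0.42 (adjusted p = 0.0048). MYB29 (AT5G07690; chromosome 5, 2446764 to 2448543), which acts with MYB28, had 1.7 and 2.17 CPM in WT and 2.78 and 1.99 CPM in hon45. The groups overlapped, and the shift of 0.30 on the log2 scale (SE 0.28, edgeR adjusted p = 0.63) had a 95% interval from −0.28 to 0.88. Leaving out hon45 replicate 1 gave 0.08 and WT replicate 1 gave 0.14, whereas omitting WT replicate 2 gave 0.49 and hon45 replicate 2 gave 0.52; MYB29 passed in none of these 4 edgeR fits. MYB76, the third activator of this branch, lies 1781 bases from MYB29 and was low, at 1.15 and 0.927 CPM in WT and 0.828 and 0.297 CPM in hon45 (log2 difference −0.87, SE 0.49, adjusted p = 0.377). Without hon45 replicate 1, MYB76 passed as lower at −1.75 (edgeR adjusted p = 0.0426).

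CYP83A1 (AT4G13770; chromosome 4, 7990485 to 7992311), which oxidises the aliphatic aldoximes, had 15.7 and 17.5 CPM in WT and 21.8 and 21.2 CPM in hon45. The groups were apart and the replicates of each genotype close together. Its log2 fold change was 0.37 (SE 0.11, edgeR adjusted p = 0.0631), and the 95% interval ran from 0.14 to 0.61. CYP83A1 passed with no count filter (0.40, edgeR adjusted p = 0.0481), with a replicate block (0.38, edgeR adjusted p = 0.0314) and without WT replicate 2 (0.46, edgeR adjusted p = 0.00289). CYP79F1 (AT1G16410; chromosome 1, 5608807 to 5611426), which starts the aliphatic core pathway, had 1.48 and 2.34 CPM in WT and 2.28 and 1.08 CPM in hon45. Its replicates differed more than its groups, and the direction of its difference (log2 −0.18, SE 0.36, edgeR adjusted p = 0.846) turned with the library left out, from −0.79 without hon45 replicate 1 to 0.25 without hon45 replicate 2; it was also above 0 without WT replicate 2 (0.19). CYP79F1 lies 1333 bases from its close copy CYP79F2, which had 2.75 and 2.53 CPM in WT and 3.05 and 2.90 in hon45 (log2 difference 0.17, SE 0.22, edgeR adjusted p = 0.749). The counts and FPKM of CYP79F1 together imply a length of 2881 bases, more than the 2620 bases of its whole locus. Which of the measures is off is not known, so its level is uncertain on both scales.

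MYB34 (AT5G60890; chromosome 5, 24494691 to 24496351), an activator of the indole branch, had 19.9 and 22.3 CPM in WT and 23.6 and 25.4 CPM in hon45. The gap between the groups was smaller than the distance between the replicates of either genotype, with a shift of 0.21 on the log2 scale (SE 0.11, edgeR adjusted p = 0.321). MYB51 (AT1G18570; chromosome 1, 6389411 to 6391267), known as the activator of this branch that responds to defence signals in shoots, had 2.36 and 2.76 CPM in WT and 3.39 and 2.71 CPM in hon45. The groups overlapped, since hon45 replicate 2 lay just under WT replicate 2, and the shift was 0.25 on the log2 scale (SE 0.23, edgeR adjusted p = 0.628). Omitting hon45 replicate 1 gave 0.11 and WT replicate 1 gave 0.14, against 0.37 when WT replicate 2 and 0.40 when hon45 replicate 2 was omitted, and MYB51 passed in none of the 4 fits. MYB122, the third indole activator, stood at 0.998 and 1.02 CPM in WT against 1.41 and 1.07 in hon45 (log2 difference 0.29, SE 0.38, edgeR adjusted p = 0.754).

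CYP79B2 (AT4G39950; chromosome 4, 18525246 to 18527579), which converts tryptophan to its aldoxime, had 3.84 and 4.48 CPM in WT and 6.21 and 4.97 CPM in hon45, 0.42 higher on the log2 scale (SE 0.17, edgeR adjusted p = 0.196). CYP79B3 (AT2G22330; chromosome 2, 9488554 to 9491187), which carries out the same step, had 2.84 and 3.91 CPM in WT and 4.5 and 4.49 CPM in hon45, 0.41 higher on the log2 scale (SE 0.19, edgeR adjusted p = 0.278). Both genes were higher in each hon45 library than in either WT library, but the WT libraries of CYP79B3 stood apart from each other by 0.46 on the log2 scale, more than the difference between genotypes. CYP83B1 (AT4G31500; chromosome 4, 15273471 to 15275310), the next enzyme of the indole branch, had 21.5 and 26.5 CPM in WT and 27.9 and 29.6 CPM in hon45. Its groups were apart, and its log2 difference of 0.26 (SE 0.11, edgeR adjusted p = 0.235) was 0.12 without WT replicate 1 and passed at 0.42 without WT replicate 2 (edgeR adjusted p = 0.00435). The 95% intervals of the fold changes ran from 1.04 to 1.73 for CYP79B2, from 1 to 1.76 for CYP79B3 and from 1.01 to 1.41 for CYP83B1, before any adjustment for the number of genes tested.

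CYP81F2 (AT5G57220; chromosome 5, 23187840 to 23189857), which hydroxylates the indole ring of finished indole glucosinolates and is needed for antifungal and pattern-triggered defence, had 16.8 and 19.4 CPM in WT and 9.4 and 11.7 CPM in hon45. Both hon45 libraries lay below both WT libraries. Its log2 fold change was −0.78 (SE 0.13, edgeR quasi-likelihood adjusted p = 0.00285). Per length, CYP81F2 stood at 12.2 and 14.1 FPKM in the WT libraries and at 6.63 and 8.2 FPKM in those of hon45, a shift of −0.75 in log2(FPKM + 1) that did not pass there (limma-trend adjusted p = 0.0684). It passed in 12 of 16 alternative fits. Without hon45 replicate 1 it stood at −0.60 and without hon45 replicate 2 at −0.95.

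IGMT1 and IGMT2, methyltransferases that act on hydroxylated indole glucosinolates, fell as well. IGMT1 (AT1G21100; chromosome 1, 7386839 to 7388428) had 67.6 and 65.9 FPKM in WT and 35.5 and 38.2 FPKM in hon45, and on counts its log2 fold change was −0.60 (SE 0.11, edgeR adjusted p = 0.00529). IGMT2 (AT1G21120; chromosome 1, 7395228 to 7396773) had 16.7 and 14.1 FPKM in WT and 8.66 and 9.4 in hon45, with a log2 fold change on counts of −0.61 (SE 0.12, edgeR adjusted p = 0.00648). For both genes the hon45 libraries lay below the WT libraries on either scale. Neither passed without hon45 replicate 1 (edgeR adjusted p = 0.103 and 0.122) or without hon45 replicate 2 (0.0846 and 0.066), and IGMT1 but not IGMT2 passed on FPKM (limma-trend adjusted p = 0.0145 and 0.0544). For IGMT1 and IGMT2, counts and FPKM together imply lengths of 3360 and 10512 bases for loci of 1590 and 1546 bases. Their levels are therefore uncertain on both scales, and close copies lie beside them. Among those copies, chosen after their values were seen, IGMT3 fell by 0.57 on the log2 scale (SE 0.11, edgeR adjusted p = 0.0102) and IGMT4 had a log2 difference of 0.05 (SE 0.11, edgeR adjusted p = 0.857).

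CYP81F4, which hydroxylates the indole ring at another position, stood at 311 and 326 FPKM in WT and 294 and 306 in hon45. IGMT5, the methyltransferase known for that product, stood at 147 and 151 against 178 and 178 FPKM. IGMT5 was named outside the naming rule given in the methods. Neither was called on counts, with log2 differences of −0.08 (95% interval −0.30 to 0.15) and 0.26 (0.04 to 0.49) and edgeR adjusted p-values of 0.776 and 0.194. CYP81F4 overlaps AT4G37409 and IGMT5 overlaps AT1G76780, so their counts may hold reads of those genes. The sign of CYP81F4 turned without hon45 replicate 1 (0.01). The FPKM of CYP81F4 was 25.5 and 23 times that of CYP81F2 in the WT libraries and 44.4 and 37.3 times in the hon45 libraries. CYP81F1 and CYP81F3, relatives of CYP81F2 from the CYP81F4 cluster on chromosome 4, had log2 differences of −0.03 (SE 0.12) and −0.28 (SE 0.12) and were not called (edgeR adjusted p = 0.934 and 0.243). CYP81F1 overlaps AT4G37432, its implied length of 3388 bases exceeds its locus of 1849 bases, and its sign turned without WT replicate 1 (0.09) and without hon45 replicate 1 (0.11).

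**Figure D3:**
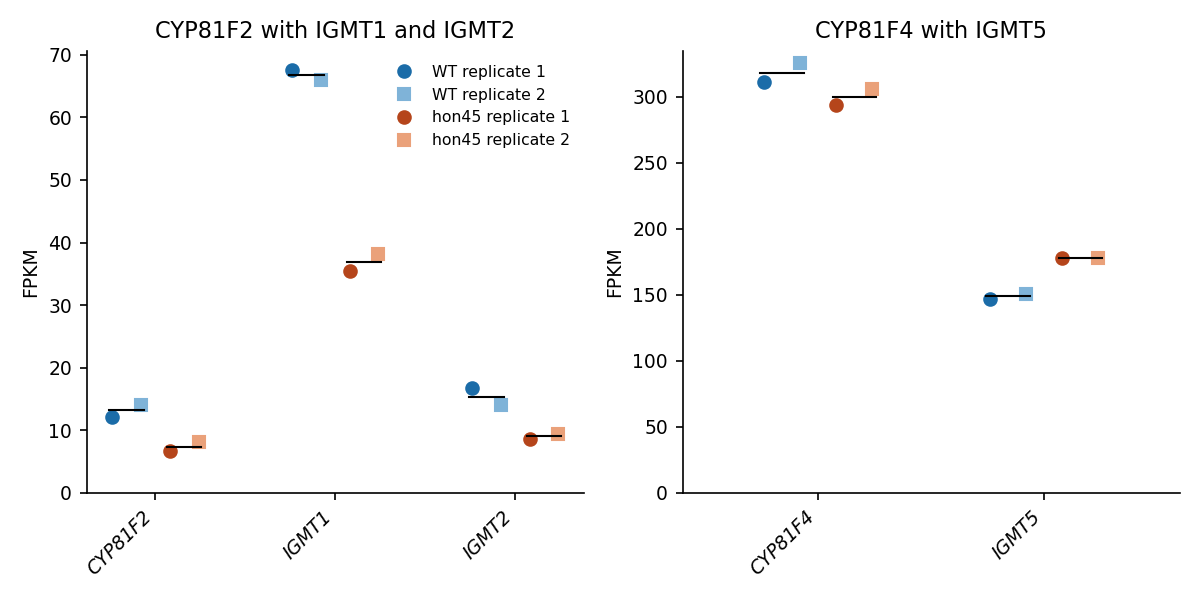
FPKM (y axes, linear, from 0) of CYP81F2, IGMT1 and IGMT2 (left) and of CYP81F4 and IGMT5 (right) in each library; points are libraries and black bars genotype means. On the left all hon45 points lie below the WT points, with IGMT1 at 35.5 and 38.2 against 67.6 and 65.9, while on the right CYP81F4 is at 294 to 326 FPKM and IGMT5 is at 178 in both hon45 libraries against 147 and 151 in WT.

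Elsewhere in the pathway, 1 gene rose and 3 fell among 46 tested genes of 6 further lists. Over all tested genes 2.37% rose and 1.56% fell. Of the 46 genes 23 stood above and 23 below 0, where 44.5% of all tested genes stood above 0. Their median log2 fold change was 0.02. With DESeq2, 2 rose and 2 fell, where 4.44% and 1.96% of all genes it tested did. Which of the 46 genes passed depended on the library left out. GSL-OH, which hydroxylates side chains of aliphatic glucosinolates, was the gene that rose: it had 74.4 and 98.5 CPM in WT and 120 and 132 in hon45 (log2 fold change 0.54, SE 0.13, edgeR adjusted p = 0.0252). WT replicate 1 was the lowest library, and without it GSL-OH stood at 0.36 (edgeR adjusted p = 0.0764). It did not pass without hon45 replicate 2 either (0.47, edgeR adjusted p = 0.314). MAM3, a synthase that lengthens the methionine side chain, fell, with 4.82 and 4.57 CPM in WT and 2.65 and 2.68 in hon45 (log2 fold change −0.82, SE 0.19, edgeR adjusted p = 0.0212). Its replicates were nearly equal within each genotype, but its FPKM fit did not pass (2.97 and 2.38 against 1.23 and 1.64 FPKM, limma-trend adjusted p = 0.114). The call was also lost without WT replicate 1 (edgeR adjusted p = 0.0952), without hon45 replicate 1 (0.0642) and without hon45 replicate 2 (0.129). The other 8 chain-elongation genes were not called; MAM1, the neighbouring synthase in this step and named after its values were seen, had a log2 difference of 0.28 (SE 0.18, edgeR adjusted p = 0.444). AOP2 was the gene not tested, since the count table used here has no row for it; its FPKM was 0.39 to 0.781.

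Of 8 further regulators 0 were called by edgeR, with 3 at an unadjusted p under 0.05, and DESeq2 called 1 as higher while limma-voom called 0. MYC3 and MYC4, partners of the MYB proteins, had log2 differences of 0.35 (SE 0.10, edgeR adjusted p = 0.0569) and 0.41 (SE 0.12, edgeR adjusted p = 0.0562). Both had hon45 libraries above WT libraries, at 40.6 and 41.0 against 31.3 and 32.9 CPM for MYC3 and at 19.0 and 16.4 against 12.8 and 13.7 CPM for MYC4. MYC3 passed with DESeq2 (adjusted p = 0.0426), with a replicate block (edgeR adjusted p = 0.0361) and without WT replicate 2 (0.00643). MYC4 passed with the block (edgeR adjusted p = 0.0253), with RLE size factors (0.0341), with no count filter (0.0328), after removal of overlapping genes (0.0448) and without WT replicate 2 (0.00414). MYC2, the jasmonate-response regulator, stood at −0.08 (SE 0.11) and overlaps AT1G32630. The Dof factor OBP2 stood at −0.02 (SE 0.10), the calmodulin-binding IQD1 at −0.09 (SE 0.15) and EIL3, also known as SLIM1 and a regulator of the sulfur response, at 0.26 (SE 0.12). IQD1 and EIL3 overlap AT3G09720 and AT1G73720. The sign of OBP2 turned with RLE size factors and that of IQD1 on FPKM (0.01 and 0.04).

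Of 12 further core enzymes 0 were called by edgeR, DESeq2 or limma-voom, with 1 at an unadjusted p under 0.05 in the edgeR fit. The glucosyltransferase UGT74C1 had the largest log2 difference among them, 0.39 (SE 0.12, edgeR adjusted p = 0.0648), with the overlapping genes AT2G31800 and AT2G08470, and passed with a replicate block (edgeR adjusted p = 0.0178), with RLE size factors (0.0362), with no count filter (0.0358) and without WT replicate 2 (0.000246). The C-S lyase SUR1 stood at 0.22 (SE 0.11, edgeR adjusted p = 0.294). The 3 transporter genes were not called by any of these tools, with 0 at an unadjusted p under 0.05 in the edgeR fit; GTR1 stood at 0.23 and GTR2 at 0.17, and both overlap other genes. Of 6 genes of tryptophan supply and the camalexin branch edgeR called 0 (2 at an unadjusted p under 0.05) and DESeq2 called 1 as higher. That gene was TSB1, a tryptophan synthase subunit named after its values were seen, with a log2 difference of 0.34 (SE 0.11) and an edgeR adjusted p of 0.0887. There the aldoxime-using enzymes CYP71A13 and CYP71A12 stood at −0.62 (SE 0.32) and −0.36 (SE 0.11), with edgeR adjusted p-values of 0.321 and 0.0755; CYP71A13 overlaps AT2G30766 and its count level is uncertain. CYP71A12 passed as lower without WT replicate 1 (edgeR adjusted p = 0.0273), without WT replicate 2 (0.0346), with a replicate block (0.0324) and with the length trend removed (0.028). PEN2 and PEN3, of the route by which indole glucosinolates are used inside living cells, both stood at 0.23 (SE 0.11) and were not called, with 0 at an unadjusted p under 0.05; DESeq2 and limma-voom also called 0. PEN3 stood at 0.03 with the length trend removed and at 0.12 to 0.36 when a library was left out, and PEN2 at 0.15 and at 0.15 to 0.32.

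Sulfate supply was measured beside the pathway because glucosinolates carry several sulfur atoms. Of 5 genes of sulfate activation and reduction edgeR called 0, with 3 at an unadjusted p under 0.05. DESeq2 called 1 as higher, namely APR1. APR1, an adenosine phosphosulfate reductase, stood at 0.34 (SE 0.11, edgeR adjusted p = 0.0989) and the kinase APK1, which feeds sulfation, at −0.35 (SE 0.11, edgeR adjusted p = 0.1). Of 8 markers of sulfur starvation 0 rose and 2 fell, where 2.37% and 1.56% of all tested genes did. Of these markers 3 stood above 0 and 5 below 0. SDI2, named after its values were seen, was higher in both hon45 libraries (59.5 and 69.1 CPM) than in WT (52.2 and 49.1 CPM). Its log2 difference was 0.35 (SE 0.11, edgeR adjusted p = 0.0818), and it overlaps AT1G04760. The root sulfate transporter SULTR1;1 had 243 and 205 CPM in WT and 142 and 162 in hon45 (log2 fold change −0.56, SE 0.12, edgeR adjusted p = 0.0144). LSU1, a sulfur-deficiency gene, had 1138 and 869 CPM in WT against 695 and 767 in hon45 (log2 fold change −0.46, SE 0.12, edgeR adjusted p = 0.0481), and passed in 5 of 16 alternative fits. It stood at −0.25 without WT replicate 1 (edgeR adjusted p = 0.374), at −0.30 with the length trend removed (0.133), and missed the threshold with RLE size factors (0.0506), when either hon45 library was left out (0.259 and 0.226) and on FPKM (limma-trend adjusted p = 0.135). SULTR1;1 did not pass without hon45 replicate 1 (−0.43, edgeR adjusted p = 0.171) or without hon45 replicate 2 (−0.66, 0.104). SDI1, named after its values were seen, is a sulfur-deficiency protein known to repress aliphatic glucosinolate synthesis through MYB28. It stood at 1368 and 1264 FPKM in WT and 1168 and 1267 FPKM in hon45 (log2 difference on counts −0.11, SE 0.11, edgeR adjusted p = 0.678), above all 10 glucosinolate genes in every library.

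WT replicate 1 was the low WT library for all 10 genes, but between genotypes the 10 did not move together. All 10 were higher in WT replicate 2 than in WT replicate 1, as were 49.5% of all tested genes. In hon45, 4 of 10 were higher in replicate 2 than in replicate 1, as were 13983 of all 29226 tested genes. The 9 genes other than CYP81F2 summed to 89.6 and 106 CPM in WT and to 119 CPM in each hon45 library. The summed green-tissue markers followed the same order, at 24799 and 29765 CPM in WT and 31621 and 32385 in hon45. So did the markers of myrosin and guard cells, where the myrosinases act, at 313 and 474 CPM in WT and 590 and 594 in hon45. Of the 5 green-tissue markers 2 rose, CA1 at 0.71 and RBCS3B at 0.47 on the log2 scale, and 1 lay below 0. For this and the marker lists that follow, 2.37% of all tested genes rose and 1.56% fell. Of the 3 markers of myrosin and guard cells 2 rose, TGG2 at 1.32 and TGG1 at 0.52 on the log2 scale. The third, FAMA, named after its values were seen, was not called (log2 difference 0.11, SE 0.19, edgeR adjusted p = 0.832). The sum over this list was mostly TGG1, at 296 and 430 CPM in WT and 516 and 527 in hon45. Without WT replicate 1, TGG2 and CA1 stood at 0.72 and 0.41 and still passed (edgeR adjusted p = 1.37e-07 and 0.024), while TGG1 and RBCS3B stood at 0.28 each and did not (0.279 and 0.18). DESeq2 called none of CA1, TGG1 and TGG2 (adjusted p = 0.22, 0.247 and 0.306), and without hon45 replicate 2 CA1, RBCS3B and TGG1 did not pass (edgeR adjusted p = 0.16, 0.268 and 0.286). Without WT replicate 1 the log2 differences of MYB28, MYB34, CYP79B3 and CYP83B1 were 0.20, 0.13, 0.20 and 0.12, and that of CYP81F2 was −0.88. Of 9 root markers 0 rose and 5 fell, and 3 of the uncalled ones stood above 0. The falls included EXP18 by 0.61, TIP2;3 by 0.57, PRP3 by 0.52 and EXP7 by 0.47 on the log2 scale. On FPKM these 5 calls became 0, where 0.621% of all genes tested there were called. Which root markers passed also depended on the library left out. In those fits EXP18 stood at −0.73 to −0.47, TIP2;3 at −0.70 to −0.42, PRP3 at −0.66 to −0.37 and EXP7 at −0.55 to −0.36. The sum over the list, 3421 and 3803 CPM in WT and 4081 and 4176 CPM in hon45, was mostly PYK10, which was not called (log2 difference 0.25, edgeR adjusted p = 0.207) and is named after its values were seen. Without PYK10 the other 8 root markers summed to 362 and 318 CPM in WT and to 243 and 257 CPM in hon45. Among these 8, SHR and SCR, named after their values were seen, had both hon45 libraries above both WT libraries. Their log2 differences were 0.14 (SE 0.11) and 0.07 (SE 0.10), and neither was called (edgeR adjusted p = 0.545 and 0.778). The part of these tissue markers in the values of the 10 genes was not tested.

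**Figure D4:**
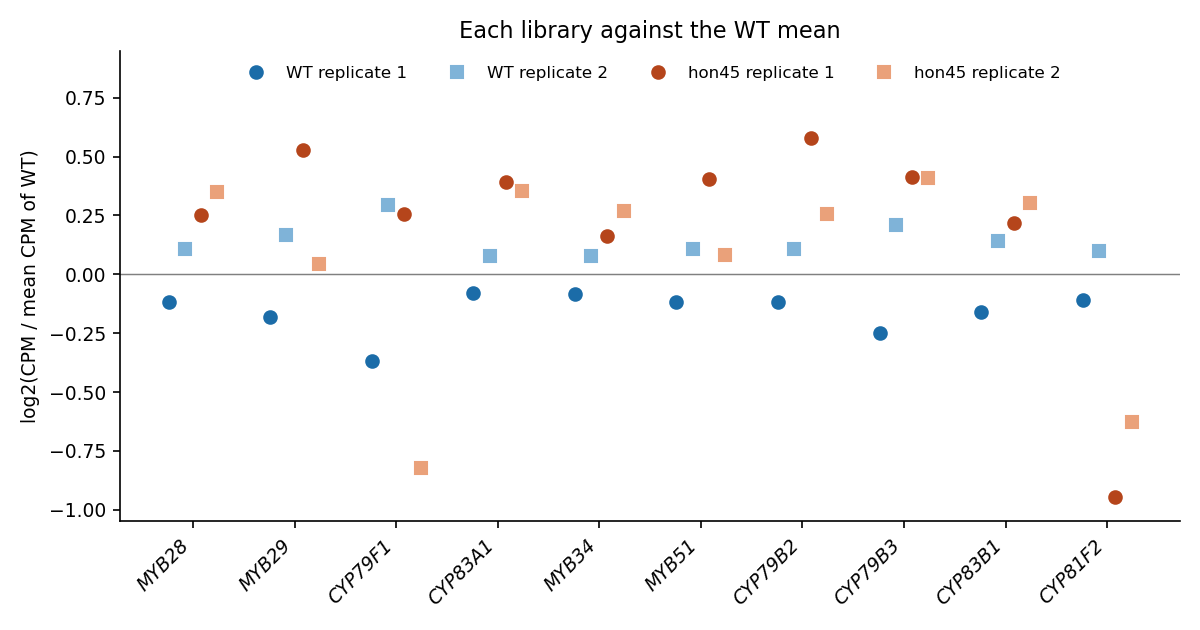
Log2 ratio of the CPM of each library to the mean CPM of WT (y axis) for the 10 genes (x axis); each point is a library and 0 is the WT mean. WT replicate 1 lies below WT replicate 2 for every gene, 6 genes have both hon45 points above both WT points, and CYP81F2 has both below.

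Genes of the rapid response to wounding and elicitors, a setting in which CYP81F2 is known to be induced, were measured beside it. Of 9 such genes 0 rose and 1 fell: the ethylene-response factor ERF6 had 8.57 and 7.79 CPM in WT and 4.92 and 4.69 in hon45 (log2 fold change −0.77, SE 0.14, edgeR adjusted p = 0.00663), and passed on FPKM too (limma-trend adjusted p = 0.0383) but not without hon45 replicate 2 (−0.73, edgeR adjusted p = 0.11). Over all tested genes 2.37% rose and 1.56% fell. The median log2 fold change of the 9 wound and elicitor genes was −0.17, with 6 below 0. They summed to 114 and 99.5 CPM in WT against 89.3 and 95.5 CPM in hon45. Their part in the fall of CYP81F2 was not tested.

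Implied length, which comes from counts and FPKM together, was associated with the direction of calls in these libraries. Its median was 2051 bases for genes that rose, 868 for genes that fell and 1384 for all tested genes. The length trend was fitted on the same quantity, so disagreement between counts and FPKM can enter both. The 10 glucosinolate genes had implied lengths from 1077 to 2881 bases, with a median of 1393. With the length trend removed, CYP81F2 was still the called gene among the 10, at −0.84 (edgeR adjusted p = 0.00189). None of the 10 overlaps another counted gene by RefSeq spans, whereas 9287 of the 29226 tested genes do.

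**Figure D5:**
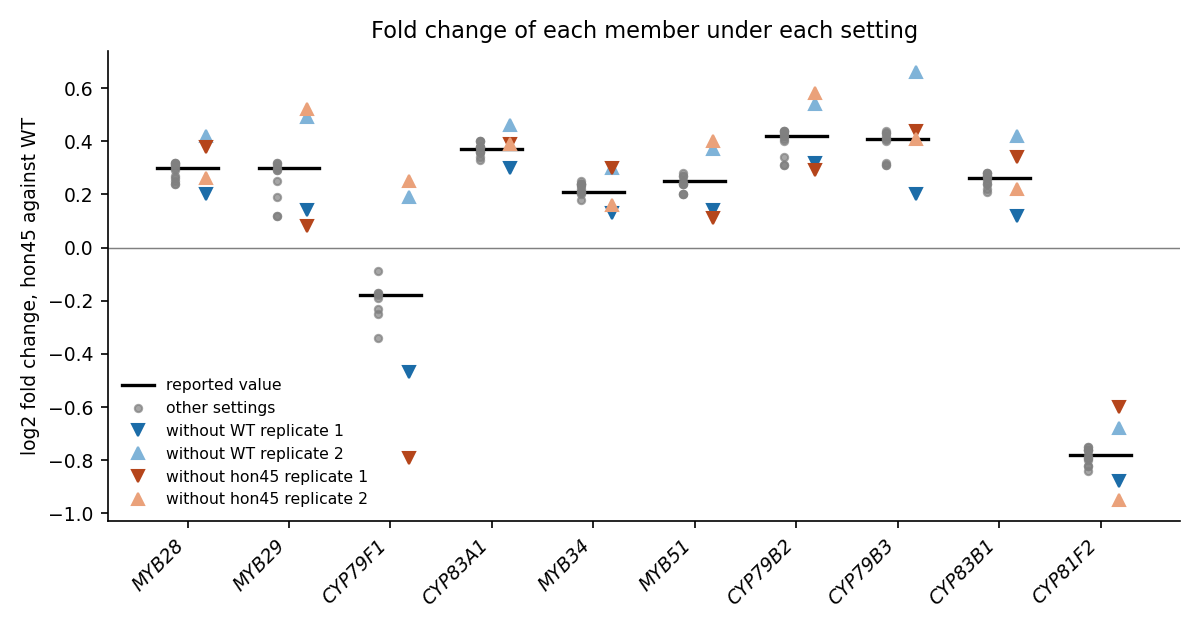
Log2 fold change of hon45 against WT (y axis) for the 10 genes (x axis) under the reported fit (black bar), under fits that leave out a library (triangles) and under the other settings (grey points). CYP81F2 stays between −0.95 and −0.60, the 8 genes above 0 stay above 0, and CYP79F1 runs from −0.79 to 0.25.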

How the data were processed

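The gene counts were deposited by the authors as raw whole-number counts per gene for 4 RNA-seq libraries, 2 WT and 2 hon45, made from poly(A) RNA. The authors also deposited FPKM values per gene and library, which are scaled for depth and transcript length. HISAT2, Bowtie2, deepTools, edgeR and TAIR10 are named per the submitters' processing notes; for the counting program, strand setting and annotation release, no name is given in the sources used here. The 3 ChIP samples were not analysed here. Without a stated strand setting, reads of overlapping genes cannot be told apart.

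Counts were tested with edgeR 4.0.16 in R 4.3.3 (filterByExpr, TMM scaling, quasi-likelihood test of genotype, 2 residual degrees of freedom for 4 libraries), with Benjamini-Hochberg adjustment over 29226 genes and a threshold of 0.05. The test pools part of the variance over genes, so its p-values and intervals use more degrees of freedom than these 2. SE is the absolute log2 fold change divided by the square root of the F statistic. CPM values use the TMM-scaled library. FPKM values were tested as log2(FPKM + 1) with limma 3.58.1 among genes at 1 FPKM or more in 2 libraries; such fold changes understate low genes. Library totals were 53858439 to 63543079 counts, and intervals are 95% intervals of the fit. Replicates differed beyond sampling noise (chi-square per degree of freedom 23.3 in WT and 15.7 in hon45). Implied length is the transcript length, in bases, at which a gene's counts and library total would give its FPKM. Alternatives were DESeq2 1.42.0, limma-voom, other scalings and filters, removal of a trend with implied length, a replicate block and leaving out each library.

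The members and gene lists were chosen with earlier results of these data known. Named were the 10 genes, the targeted genes, all other regulators, CYP79F2 and the CYP81F genes. In each other list the called genes were named (the 4 smallest p where more were called), or the 2 with the largest log2 difference among genes at a mean of 1 CPM or more where 0 were called. Names added later or outside this rule are marked. Coordinates are TAIR10 from the FPKM files, and overlaps and neighbours come from the RefSeq gene table of TAIR10.1, in which all 32548 counted genes matched.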

Additional observations from a re-analysis of the deposited data

How the results depend on the processing

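Over all genes, 1149 calls became 722 with at least 5 CPM in 2 libraries, 2004 with a replicate block and 123 to 4027 when a library was left out, and 121, 110 and 7 on FPKM (pseudocount 1, pseudocount 0.1, no filter). For the 10 glucosinolate genes, 1 call became 2 with no count filter, 2 with the replicate block, 0 to 4 when a library was left out, and 0, 0 and 0 in the same FPKM fits. For the other pathway genes, 4 calls became 2 with the 5 CPM filter, 7 with the block, 0 to 8 when a library was left out, and 1, 1 and 0 on FPKM. The share of all tested genes that passed was 4.74% with no count filter and 6.86% with the block. On FPKM it was 0.621%, 0.564% and 0.0225% in the same order as above. With the 5 CPM filter 15787 genes were tested and 4.57% passed, against 3.93% in the reported fit. MAM3, under 5 CPM in every library, was not tested with that filter. The block added CYP83A1 (0.38) among the 10. Replicate numbers share only a number: deviations of same-numbered libraries correlated at 0.0618 over 15592 genes.

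Of 692 higher and 457 lower calls, the split became 744 and 328 with DESeq2, 399 and 500 with the length trend removed and 341 and 381 with the 5 CPM filter. Among 779 pairs of a gene and an alternative, 646 kept direction and side of the threshold, 92 lost the call, 25 gained it and 16 changed sign. OBP2 stood at 0.01 with RLE size factors, with no count filter and with DESeq2, and at −0.05 to 0.06 when a library was left out. IQD1 stood at 0.04 in all 3 FPKM fits and at −0.21 to 0.06 when a library was left out. On leaving out a library, CYP79F1 ran from −0.79 to 0.25, CYP81F1 from −0.14 to 0.11, CYP81F4 from −0.13 to 0.01, CRU3 from −0.36 to 0.06 and AG from −1.29 to 0.19. The cause was not tested. With 2 libraries per genotype, which genes pass depends on single libraries, and a missed threshold does not show that a gene was unchanged. A fit that leaves out a library holds a single library of that genotype, and the total of called genes differed widely between these fits. A call lost there is therefore not a trait of that gene alone.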

Other observations

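The genes next to the 10 glucosinolate genes on the chromosome were examined after the data had been seen. Of 20 such neighbours, 1 rose and 0 fell in the edgeR test, where 2.37% and 1.56% of all tested genes did. Their median log2 fold change was 0.01. AT4G31490, 323 bases from CYP83B1, rose by 0.44 on the log2 scale (edgeR adjusted p = 0.0314). The neighbours of CYP81F2, AT5G57210 and AT5G57230, lie 4028 and 136 bases away and had log2 differences of 0.21 and 0.17 (edgeR adjusted p = 0.398 and 0.674). Other genes of the pathway or of sulfate activation also lie close by, with SOT17 at 7312 bases from MYB51 and APK2 at 3677 bases from CYP79B2. Their log2 differences were 0.21 (SE 0.20) and −0.02 (SE 0.11), and neither was called (edgeR adjusted p = 0.648 and 0.944).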
